A study of Mus musculus with 56 samples.

Results

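The 9 genes Irf7, Isg15, Usp18, Ifit1, Ifit3, Oas2, Mx1, Rsad2 and Ifi44, all transcribed in response to interferon, were followed in mouse liver after removal of miR-122, the most abundant microRNA of hepatocytes. They were chosen by gene symbol, as were the lists of genes used below, with earlier results of these data known. Each of the 9 has 1 row in an RNA-seq table of 21888 symbols. The table gives FPKM, in which the fragments sequenced from a gene are scaled for transcript length and library size. All 14 livers with RNA-seq are described, 1 library per mouse, all labelled with the strain background 129Sv/J. Of these, 11 came from mice with loxP sites around pre-miR-122, of which 3 were uninjected and 8 had received rAAV8-Ef1a-Cre through the tail vein. This virus carries Cre recombinase under the general Ef1a promoter. The injected mice were harvested at day 21 (3 mice), day 45 (3 mice), day 100 (1 mouse) and day 200 (1 mouse). The remaining 3 livers came from germline miR-122 knockout mice, whose labels mention no injection. Letters A, B and C name the mice within a group. The injected mice were adult per the study's text, with no exact age or sex used here, and no mouse received a virus without Cre. Exposure to the virus, Cre and the loss of miR-122 therefore cannot be told apart in the injected mice, and the knockout also differs from the floxed mice in its breeding.

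Interferons are secreted proteins that signal through cell surface receptors to the JAK kinases and STAT factors. Type I and type III interferons lead to binding of the interferon-stimulated response element (ISRE), whereas interferon-gamma leads mainly to binding of the gamma-activated site (GAS). In liver, hepatocytes, Kupffer cells (the resident macrophages) and other cells all respond. The genes described here cover the amplifying factor of the pathway (Irf7), a ubiquitin-like modifier and its protease (Isg15, Usp18), RNA-binding proteins (Ifit1, Ifit3) and further antiviral effectors (Oas2, Mx1, Rsad2, Ifi44). RNA was taken from whole liver, so more cells of a type and more RNA per cell cannot be told apart.

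Promoter sequences are shown for the genes in which a core ISRE was found, since this is the element through which the group is named. RefSeq promoters (build GRCm38.p6, 250 bases before to 50 bases after the annotated start) were at hand for 6 of the 9 genes: Irf7, Isg15, Ifit1, Ifit3, Ifi44 and Rsad2. Both strands were searched for GAAANNGAAA, the core ISRE, and for TTCNNNGAA, the core GAS. The core ISRE was present in 4 of the 6, against 3.44% of 32851 promoters of the same length, and no core GAS was found in any of the 6 (8.3% of all promoters hold one). Below, each stretch runs 5′ to 3′ on the strand of the gene, and capitals mark the core ISRE or, where copies overlap or the match lies on the other strand, its run of letters.
Isg15: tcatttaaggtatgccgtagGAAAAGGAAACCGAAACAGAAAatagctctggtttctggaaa
Ifit1: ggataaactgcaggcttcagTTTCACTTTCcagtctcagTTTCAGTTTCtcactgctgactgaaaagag
Ifit3: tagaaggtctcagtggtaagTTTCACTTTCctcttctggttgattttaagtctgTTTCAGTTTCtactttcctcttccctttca
Rsad2: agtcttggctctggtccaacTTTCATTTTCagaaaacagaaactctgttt
These lie at chr4:156200855-156200916 on the minus strand, chr19:34640765-34640833 and chr19:34583353-34583436 on the plus strand, and chr12:26456543-26456592 on the minus strand. Isg15 held 3 overlapping copies in the forward direction, the first starting 78 bases before the start site. Ifit1 and Ifit3 each held 2 separate copies in the reverse direction, starting 104 and 85 bases before the start site in Ifit1 and 156 and 122 bases before it in Ifit3. Rsad2 held 1 copy, 120 bases before its start. No match was found in Irf7 and Ifi44, which says only that these letters are not in this window.

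The FPKM do not carry fragment numbers. From the smallest steps between low values, with an assumed fragment length of 150 bases, the effective depth was estimated at 35.2 to 54.6 M (mega) fragments in the floxed mice and 24.3 to 31.7 M in the knockout mice. The least abundant value of any member, Mx1 in knockout C, corresponded to about 55 fragments. miR-122 made up 59.2% to 73.3% of microRNA reads in the uninjected mice, 8.22% to 13.2% at day 21, 0.383% to 1.23% at day 45, 4.46% at day 100 and 19.1% at day 200. Differences were fitted with limma on log2(FPKM + 1) in all 14 livers, and p-values were adjusted over the 11354 genes whose level averaged 1 FPKM or more, with a threshold of 0.05. All 9 genes passed this filter. Most genes that passed the threshold in injected mice were higher, and the median log2 difference over all genes was 0.19 for the 8 injected against the uninjected mice and 0.20 at day 45. With every library centred on its median, 63.7% rather than 86.5% of the genes called in injected against uninjected mice were higher, and 67.4% rather than 88.8% at day 45.

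At day 45, when miR-122 was lowest, 8 of the 9 genes rose against the uninjected mice, by fitted log2 differences of 1.13 (Rsad2) to 1.74 (Ifit1). Among all genes 23.7% were called higher in this comparison. The median difference of the 9 genes was 1.48 against 0.20 for all genes, and relative to this median of all genes the members ran from 0.88 (Ifi44) to 1.54 (Ifit1). For every one of the 9, all 3 day 45 mice lay above all 3 uninjected mice, a separation seen for 40.5% of all genes tested. Ifi44 was the member not called (1.07, adjusted p = 0.0527).

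**Figure D1:**
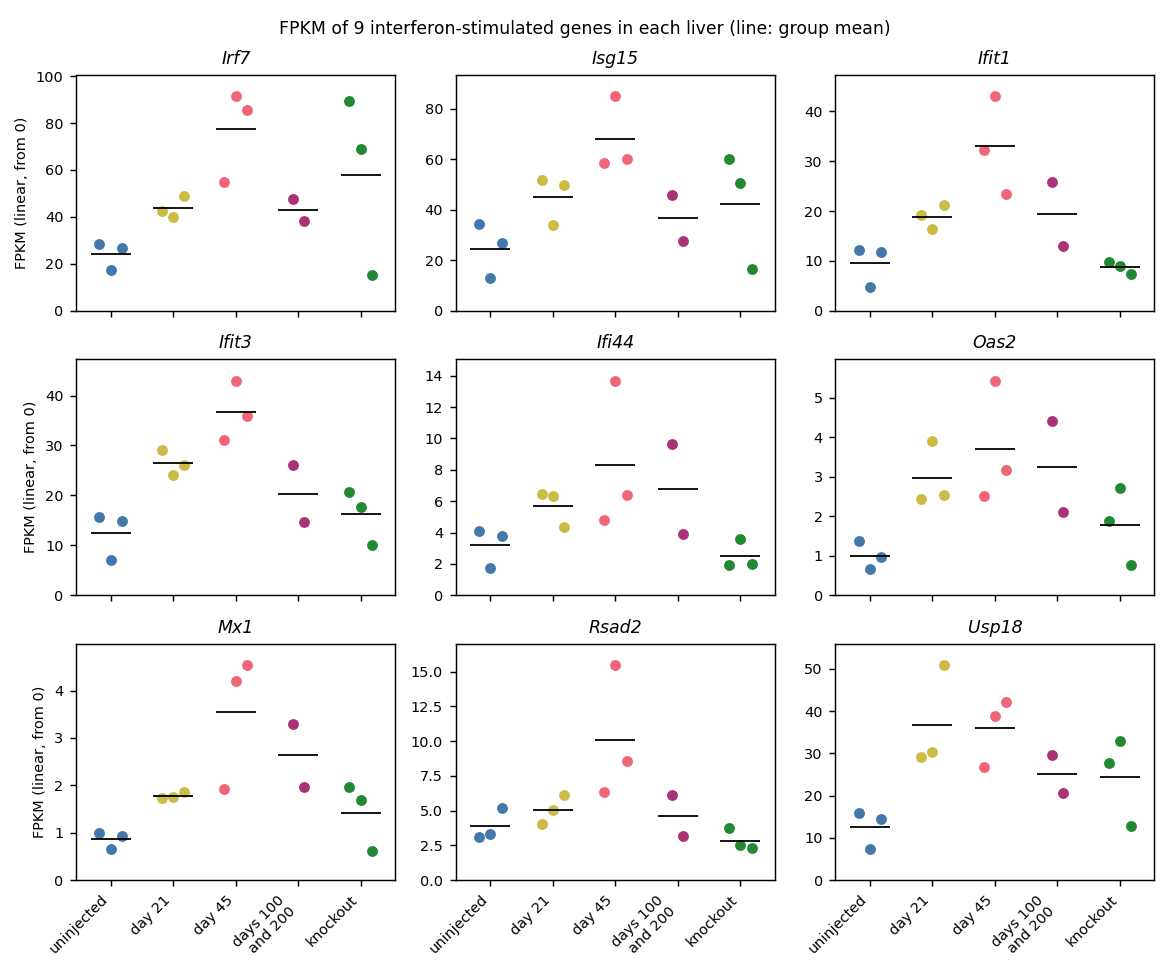
FPKM of the 9 genes in each of the 14 livers (linear axes from 0), with points in the order A, B, C or day 100 then day 200 and a line at the group mean. The 3 day 45 livers lie above the 3 uninjected livers in every panel, and knockout A and B stand far above knockout C for Irf7 and Isg15.

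Irf7 encodes the transcription factor that amplifies the type I interferon response. It lies at chr7:148449088-148452300 (mm9, as are all coordinates of genes below). Its FPKM were 28.6, 17.4 and 26.9 in uninjected A, B and C, 42.7, 39.8 and 48.9 at day 21, 54.9, 91.5 and 85.5 at day 45, 47.7 at day 100 and 38.1 at day 200, and 89.2, 69.0 and 15.1 in knockout A, B and C. All 8 injected mice lay above the uninjected mice, whereas the knockout held both the second highest and the lowest value of the 14 livers. At day 45 the mean was 77.3 ± 19.6 FPKM against 24.3 ± 6.06 (SD, n = 3 each), a ratio of 3.18 (log2 difference 1.63 ± 0.49 SE, adjusted p = 0.0273).

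Isg15 encodes a ubiquitin-like protein that is joined to other proteins, and lies at chr4:155573533-155574927. Its FPKM were 34.4, 12.8 and 26.7 in the uninjected mice, 51.9, 34.0 and 49.6 at day 21, 58.7, 85.1 and 60.3 at day 45, 45.9 at day 100, 27.6 at day 200, and 59.9, 50.7 and 16.6 in the knockout. Day 21 B and the day 200 mouse lay inside the uninjected range, and the knockout was again split between A and B on one side and C on the other. The day 45 difference was 1.51 ± 0.45 (SE, adjusted p = 0.025).

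Usp18 encodes the protease that removes ISG15 from proteins and also restrains signalling at the type I interferon receptor. It lies at chr6:121195924-121220935. Its FPKM were 15.9, 7.33 and 14.5 in the uninjected mice, 29.2, 30.2 and 50.8 at day 21, 26.8, 38.8 and 42.2 at day 45, 29.6 at day 100, 20.7 at day 200, and 27.7, 32.9 and 12.8 in the knockout. The injected and uninjected mice did not overlap, and this was the single member with its highest value at day 21. The difference was 1.49 ± 0.37 (SE) at day 21 (adjusted p = 0.0288) and 1.48 ± 0.37 at day 45 (adjusted p = 0.0104).

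Ifit1 and Ifit3 encode neighbouring tetratricopeptide repeat proteins that act on viral RNA. Ifit1 lies at chr19:34715379-34724499 and Ifit3 at chr19:34658019-34663472. Ifit1 FPKM were 12.2, 4.75 and 11.8 in the uninjected mice, 19.1, 16.4 and 21.1 at day 21, 32.4, 43.1 and 23.5 at day 45, 25.8 at day 100, 12.9 at day 200, and 9.80, 9.04 and 7.45 in the knockout. Every injected mouse was above every uninjected and every knockout mouse, though at day 200 by little. Ifit3 FPKM were 15.6, 6.99 and 14.9 in the uninjected mice, 29.1, 24.1 and 26.2 at day 21, 31.1, 43.0 and 35.9 at day 45, 26.0 at day 100, 14.6 at day 200, and 20.7, 17.7 and 10.2 in the knockout. The day 200 mouse fell inside the uninjected range. At day 45 the differences were 1.74 ± 0.33 for Ifit1 (SE, adjusted p = 0.00276) and 1.54 ± 0.32 for Ifit3 (SE, adjusted p = 0.00395). Ifit3 has a near-identical neighbour, listed here as I830012O16Rik, with which it may share fragments. I830012O16Rik moved the same way at day 45 (9.82 against 2.89 FPKM, log2 difference 1.47, adjusted p = 0.00469).

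Oas2 and Mx1 encode an activator of the antiviral RNase L pathway and a dynamin-like GTPase. They were the least abundant members, with Oas2 at chr5:121180342-121199857 and Mx1 at chr16:97668642-97684513. Oas2 FPKM were 1.37, 0.661 and 0.964 in the uninjected mice, 2.44, 3.91 and 2.55 at day 21, 2.51, 5.43 and 3.17 at day 45, 4.41 at day 100, 2.11 at day 200, and 1.87, 2.71 and 0.779 in the knockout. Mx1 FPKM were 0.999, 0.657 and 0.923 in the uninjected mice, 1.72, 1.75 and 1.86 at day 21, 1.91, 4.19 and 4.53 at day 45, 3.30 at day 100, 1.96 at day 200, and 1.96, 1.69 and 0.608 in the knockout. For both genes all injected mice stood above the uninjected mice, and the knockout overlapped both groups. The day 45 differences, 1.20 ± 0.31 for Oas2 (SE, adjusted p = 0.013) and 1.24 ± 0.27 for Mx1 (SE, adjusted p = 0.00545), understate the ratios of mean FPKM (3.70 and 4.12), since 1 was added before the logarithm. RefSeq lists Mx1 in the GRCm38.p6 reference as a transcribed pseudogene. The related Mx2, which may share fragments with it, gave 4.09 FPKM at day 45 and 2.90 in the uninjected mice (log2 difference 0.40, adjusted p = 0.187).

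Rsad2 encodes viperin, an enzyme of the endoplasmic reticulum that makes an antiviral nucleotide, and lies at chr12:27127608-27141317. Its FPKM were 3.12, 3.33 and 5.15 in the uninjected mice, 4.02, 5.06 and 6.08 at day 21, 6.31, 15.4 and 8.54 at day 45, 6.09 at day 100, 3.16 at day 200, and 3.73, 2.49 and 2.30 in the knockout. The day 45 mice, the day 100 mouse and day 21 C were above all uninjected mice, and the others overlapped them (day 45 difference 1.13 ± 0.30 SE, adjusted p = 0.015). Ifi44, a GTPase-like protein of the cytoplasm, lies at chr3:151393887-151412923. Its FPKM were 4.12, 1.77 and 3.75 in the uninjected mice, 6.46, 6.31 and 4.36 at day 21, 4.81, 13.7 and 6.39 at day 45, 9.66 at day 100, 3.92 at day 200, and 1.93, 3.57 and 1.98 in the knockout. Day 45 B was the highest liver for both genes, and for 7 of the 9 members in all.

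The day 45 calls changed with single mice left out. Without uninjected B, the lowest uninjected mouse for 8 of the 9 genes, or without day 45 B, 4 members were called (Ifit1, Ifit3, Mx1 and Usp18), and Irf7, Isg15, Oas2 and Rsad2 were not. The number was 6 without uninjected A (Irf7 and Rsad2 lost), 6 without day 45 C (Irf7 and Isg15 lost), 7 without uninjected C (Irf7 lost), and 9 without day 45 A, day 100, day 200 or knockout C (Ifi44 gained). Of all genes 16.9% were called higher without uninjected B, 14.4% without day 45 B and 32.8% without knockout C. The differences themselves did not always shrink where a call was lost: Irf7 was at 1.76 without uninjected A (adjusted p = 0.0501) and 1.71 without uninjected C (adjusted p = 0.0533), and Isg15 at 1.59 without day 45 C (adjusted p = 0.0503), each above its value in all mice. With every library centred on its median 6 members were called, with Irf7 and Isg15 no longer past the threshold, where 14.5% of all genes were called higher. No member changed direction under any of these.

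Over the 8 injected mice together, 5 genes rose against the uninjected mice (Usp18 by 1.32, Ifit1 by 1.23, Ifit3 by 1.10, Oas2 by 1.08 and Mx1 by 0.92 on the log2 scale, adjusted p from 0.00491 to 0.00766), where 27.4% of all genes were called higher. Irf7 (1.10, adjusted p = 0.0584), Isg15 (1.02, adjusted p = 0.0546), Ifi44 (0.87, adjusted p = 0.0522) and Rsad2 (0.55, adjusted p = 0.122) were not called, although each was past 0.05 before adjustment. Before adjustment 4611 of the 11354 genes tested were past 0.05. The median of the 9 was 1.08, or 0.19 over all genes. Irf7, Ifit1, Oas2, Mx1 and Usp18 were above all uninjected mice in 8 of 8 injected mice, as were 22.3% of all genes. Without uninjected B, 4 members were called (Ifit3 lost). Isg15 was gained without uninjected A (6 called), Ifi44 without day 45 A or without day 200 (6 each), Irf7 and Isg15 without knockout A (7), and Irf7, Isg15 and Ifi44 without knockout C (8), where 35.7% of all genes were called higher.

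By time, 1 member was called at day 21 (Usp18), against 6.2% of all genes called higher. For 7 members, all but Isg15 and Rsad2, the 3 day 21 mice were nevertheless above the 3 uninjected mice (25.2% of all genes). Unadjusted p was under 0.05 for 4 members and for 2466 of the 11354 genes tested. Usp18 was no longer called (0 members) without uninjected A, uninjected B, day 21 B or day 21 C, nor without the filter on low levels (adjusted p = 0.0505). In these fits, in this order, 2.28%, 1.74%, 2.96%, 1.78% and 3.94% of all genes were called higher. The difference of Usp18 was then 1.68 without uninjected A (adjusted p = 0.053), 1.61 without day 21 B (adjusted p = 0.0634), 1.24 without day 21 C (adjusted p = 0.127) and 1.17 without uninjected B (adjusted p = 0.119). The count of members was 2 without knockout A (Ifit3 gained) and 4 without knockout C (Irf7, Ifit3 and Oas2 gained, where 12.6% of all genes were called higher), and 5 when only the uninjected and day 21 mice were fitted, where 12.3% of all genes were called higher.

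Against day 21, day 45 was higher for 8 of the 9 genes in the fitted value, the exception being Usp18 (-0.01), but limma called none. Of all genes 0.273% (31) were called in either direction, a number that was 1049 (9.24%) without knockout C, 180 without day 45 A and 0 without day 21 C or day 45 B. Rsad2 (0.80), Ifit1 (0.74) and Mx1 (0.66) had an unadjusted p under 0.05, with adjusted p of 0.219, 0.303 and 0.264. Before adjustment 1811 of the 11354 genes tested were under 0.05. The 95% intervals of Irf7 (-0.29 to 1.84) and Isg15 (-0.39 to 1.55) include both no difference and a large one. Ifi44 (0.37) and Oas2 (0.22) turned slightly negative (-0.02 and -0.03) without day 45 B, and Usp18 positive without day 21 C (0.24) or day 45 A (0.18).

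The late mice were unlike each other. The day 100 mouse was the higher one for all 9 genes, and the day 200 mouse was the lowest injected mouse for every gene but Mx1. As these are single mice, the day and the mouse cannot be told apart. Taken as 1 group against the uninjected mice, Mx1 (0.95, adjusted p = 0.0307) and Oas2 (1.05, adjusted p = 0.0356) were called, where 28.4% of all genes were higher. No member was called without the day 100 mouse, uninjected B or uninjected C, nor with median centring (15.7% of all genes were then called higher), whereas 1 was called without uninjected A (Mx1 lost), 3 without day 200 (Ifit1 gained; 21.8% of all genes were called higher) and 4 without knockout C (Irf7 and Usp18 gained; 39.0% of all genes). Of all genes 22.7% were called higher without uninjected B and 24.5% without uninjected C. Without uninjected C the differences were 0.97 for Mx1 (adjusted p = 0.058) and 1.05 for Oas2 (adjusted p = 0.0742). Without day 100, which left 1 late mouse, they were 0.68 and 0.65. Rsad2, at 0.18, was -0.16 with median centring and -0.20 without day 100. Against day 45 all 9 fitted differences were negative, from -0.95 (Rsad2) to -0.15 (Oas2). None was called by limma (0.22% of all genes were, in either direction, or 25, which ranged from 1 without day 45 A or C to 133 without day 45 B when 1 mouse was left out). Rsad2 and Ifit3 (-0.86) had an unadjusted p under 0.05, as did 890 of the 11354 genes tested. Ifi44 and Oas2 (-0.24 and -0.15) were positive without day 45 B (0.14 and 0.10) or without day 200 (0.31 and 0.25).

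In the germline knockout none of the 9 genes was called against the uninjected mice by limma, where 33.8% of all genes were called in either direction, and 1 (Usp18, 0.87, adjusted p = 0.0807) had an unadjusted p under 0.05. Before adjustment 5372 of the 11354 genes tested were under 0.05. The members were spread in this comparison, from Irf7 at 0.92 (95% interval -0.15 to 1.98) and Isg15 at 0.68 (-0.30 to 1.65) to Ifit1 at -0.03 (-0.75 to 0.69), Ifi44 at -0.25 (-1.07 to 0.57) and Rsad2 at -0.34 (-0.99 to 0.32). These intervals do not show that the knockout and the uninjected mice were alike. Knockout C was the lowest of the 3 for 8 of the 9 genes. Without it, the 2 remaining knockout mice gave calls for Irf7 (1.68, adjusted p = 0.000157), Usp18 (1.26, adjusted p = 0.00577) and Isg15 (1.24, adjusted p = 0.0104), whereas Ifit1 was at 0.07, Ifi44 at -0.15 and Rsad2 at -0.24. In that fit 62.4% of all genes (7088) were called in either direction and 31.7% were called higher, against 3 of the 9 members. The 3833 genes called in all mice became 1986 without knockout A, 1630 without knockout B, 2144 without uninjected B and 2543 without uninjected C. Ifit1 was also slightly positive without uninjected A (0.18) or uninjected C (0.16).

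The 8 injected mice were higher than the knockout for Ifit1 (1.26 ± 0.28 SE, adjusted p = 0.0115), Ifi44 (1.12 ± 0.31, adjusted p = 0.0221), Rsad2 (0.88 ± 0.25, adjusted p = 0.0228) and Ifit3 (0.74 ± 0.26, adjusted p = 0.0483), 4 of 9 where 28.9% of all genes were called higher. For Ifit1 and Ifi44 each injected mouse lay above each knockout mouse (8.5% of all genes). At day 45 the same held for Ifit3 and Rsad2 as well (20.6% of all genes). Usp18 (0.45, adjusted p = 0.267) and Isg15 (0.34, adjusted p = 0.492) were not called. Irf7 was at 0.18 (adjusted p = 0.747), at -0.01 with median centring, and lower in the injected mice without knockout C (-0.58, adjusted p = 0.0371, in a fit that called 59.7% of all genes in either direction). Isg15 was at -0.21 without knockout C.
Without knockout B no member was called, and 1 (Ifit1) was called without knockout A or without day 100. The genes called among all genes also fell in number, from 3755 to 493 without knockout B, 429 without knockout A and 2007 without day 100. The differences did not shrink in step: without knockout B Ifit1 was at 1.28 (adjusted p = 0.0548) and Ifi44 at 1.33 (adjusted p = 0.0604), and without knockout A Rsad2 was at 1.04 (adjusted p = 0.0712), each above its value in all mice. Ifit3 was lost in 12 of the 14 fits that left out 1 mouse, all but those without uninjected B and without day 200, Oas2 was gained without day 200 (5 called), and Mx1 without day 45 A. With median centring 2 were called (Ifit1 and Ifi44), where 10.7% of all genes were called higher.

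**Figure D2:**
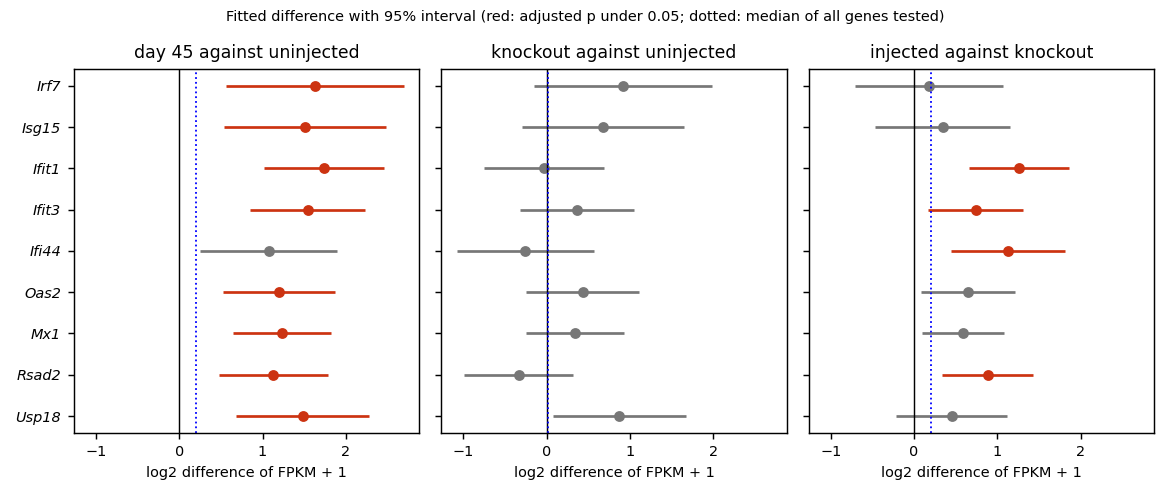
Fitted log2 differences of FPKM + 1 for the 9 genes (points) with 95% intervals (lines) in 3 comparisons, red where the adjusted p was under 0.05, with the median of all genes dotted. At day 45 all 9 points lie above 1, whereas in the knockout they run from -0.34 to 0.92.

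Ratios between members within a liver do not depend on the scaling of the library. The ratios given here were not among the planned comparisons. Irf7 FPKM per Ifit1 FPKM was 9.10 and 7.63 in knockout A and B and 1.70 to 3.66 in the other 12 livers, with knockout C at 2.03. Isg15 per Ifit1 was 6.11 and 5.61 in knockout A and B and at most 2.82 elsewhere. Usp18 per Ifit1 was 2.82 and 3.64 in these mice, where the next highest was 2.41 at day 21 C. Knockout A and B thus held much Irf7, Isg15 and Usp18 with little Ifit1, a combination found in no injected mouse. Across the 14 livers the Pearson correlation of log2(FPKM + 1) between members ran from 0.51 (Irf7 and Ifi44) to 0.93 (Irf7 and Isg15) over 36 pairs. All pairs share the same libraries and group structure.

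**Figure D3:**
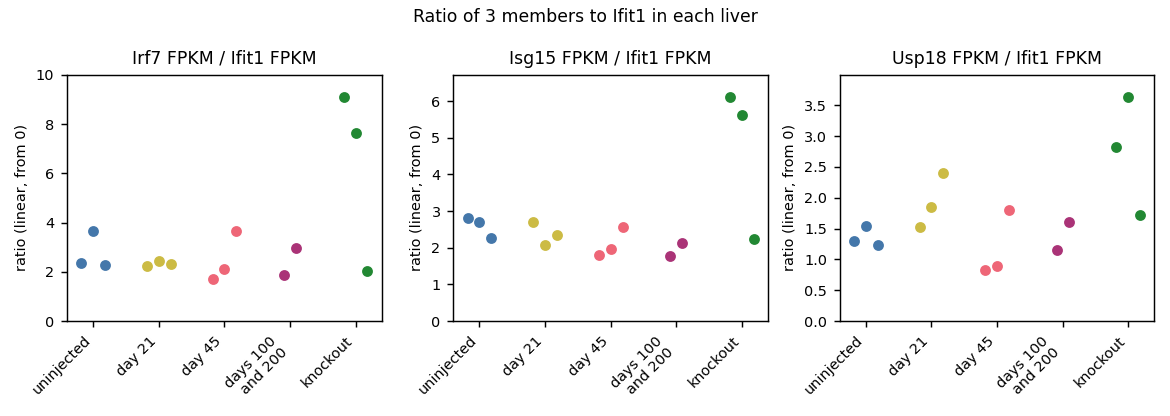
FPKM of Irf7, Isg15 and Usp18 divided by the FPKM of Ifit1 in each liver (linear axes from 0, points in the order A, B, C or day 100 then day 200). Knockout A and B lie above all other livers in the 3 panels, and knockout C lies among the floxed mice.

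Of the ligands, almost nothing was measured. Among 18 type I and type III interferon genes in the table, 15 were listed at 0 in all 14 livers. Ifnb1, interferon beta, was above 0 in 6 livers, all from injected mice (day 21 C, the 3 day 45 mice, day 100 and day 200), at 0.026 to 0.064 FPKM. This is at most about 1.7 fragments in a library, below the 3 fragments that a true count could hold where none is seen. A single liver above 0 therefore cannot be told from a liver at 0, and a difference between the groups was not tested. An exact 0 in this table can also be a failed estimate, as for Alb, so the zeros of the other ligands do not show that few fragments were present. Ifnz was listed above 0 in 2 livers, at 0.034 FPKM at most. Ifng, interferon-gamma, was at 0.035 to 0.188 FPKM in the uninjected, 0.202 to 0.434 at day 21, 0.103 to 0.295 at day 45, 0.281 at day 100, 0.414 at day 200, and 0.035 to 0.155 in the knockout mice, too low for the filter of the fit. The day 21 mice and the 2 late mice lay above the uninjected mice, and the day 45 mice overlapped them.

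Receptors and factors of the pathway are set against the 27.4% of all genes called higher in injected against uninjected mice, or 17.8% with median centring. Of 5 receptor genes tested, 3 rose in injected against uninjected mice and none fell (with median centring 2 rose and 1, Ifnar2, fell): Il10rb, which forms part of the type III receptor (1.37, adjusted p = 4.6e-05), Ifngr1 (0.92, adjusted p = 0.00281) and Ifngr2 (0.64, adjusted p = 0.0207), the interferon-gamma receptor chains. Ifnar1 and Ifnar2, the type I receptor chains, were at 0.31 and -0.43 and were not called. Of 11 JAK, STAT and IRF genes, 5 rose and none fell (4 with median centring). Irf8, a factor of myeloid cells, was at 1.80 (adjusted p = 0.00098), Irf1 at 1.01 (adjusted p = 0.00127) and the kinase Jak1 at 0.62 (adjusted p = 0.00475). Irf8 was also higher in the knockout than in the uninjected mice (1.61, adjusted p = 0.00758). The medians were 0.64 for the receptors and 0.34 for the factors.

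Of 16 nucleic acid sensors and adaptors, 8 rose, where 27.4% of all genes were called higher, and 1, the adaptor Mavs, fell (-0.50, adjusted p = 0.0247). The largest differences were those of Zbp1, a sensor of Z-form nucleic acids (1.66, adjusted p = 0.00748), Tmem173, the adaptor STING (1.61, adjusted p = 0.000273), Tlr3, a receptor for double-stranded RNA (1.10, adjusted p = 0.00379), and Ifi204, of the DNA-sensing Ifi200 family (1.09, adjusted p = 0.000217). The median was 0.60. Ifi204 moved in opposite directions in the comparisons with the uninjected mice, since it fell in the knockout (-0.60, adjusted p = 0.0175).

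Among 48 other interferon-stimulated genes (of 55 listed, the others not found by symbol), 29 rose in injected mice and none fell, with a median of 0.85, where 27.4% of all genes were called higher. With median centring 21 rose and none fell, where 17.8% of all genes were called higher. Counted here and in a second list each are Ifi204, Ifih1 and Eif2ak2 (sensors), Isg20, an RNA exonuclease (negative regulators), and Bst2 (dendritic cell markers). Lgals3bp, a secreted glycoprotein (2.03, adjusted p = 0.00022), Ifi27l2a (1.77, adjusted p = 0.0155), Ifit2 of the Ifit family (1.61, adjusted p = 0.000398) and Oasl2 of the oligoadenylate synthetase-like family (1.51, adjusted p = 0.0035) led the list. In the knockout 11 rose and 4 fell, with a median of 0.27, where 33.8% of all genes were called in either direction and 19.3% were called higher. Those that rose included Lgals3bp (1.81, adjusted p = 0.00182), Ifi27l2a (1.68, adjusted p = 0.0448) and Oasl2 (1.23, adjusted p = 0.0286), and those that fell included Ifi204, while Ifit2 was at 0.37 (adjusted p = 0.314). Injected mice were higher than the knockout for 22 of the 48 genes and lower for none (28.9% of all genes were called higher), Ifit2 included (1.24, adjusted p = 0.00609). At day 45, 30 rose, where 23.7% of all genes did.

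Among 28 genes of the interferon-gamma response and its GTPase families, 20 rose in injected mice and none fell (median 0.98), where 27.4% of all genes were called higher, or 14 with median centring, where 17.8% were. Tgtp2, a GTPase (2.79, adjusted p = 0.00063), the chemokines Cxcl10 (2.22, adjusted p = 0.0017) and Cxcl9 (1.86, adjusted p = 0.000568), and the guanylate-binding protein gene Gbp9 (1.81, adjusted p = 0.000324) were the largest. At day 21, 17 of the 28 had already risen, with a median of 1.26, and 15 passed at day 45, with a median of 0.93, where 6.2% and 23.7% of all genes were called higher. Of the 12 negative regulators tested, 5 rose (median 0.57; 27.4% of all genes were called higher), or 4 with median centring (17.8% of all genes), with Socs3, an inhibitor of JAK signalling, at 1.60 (adjusted p = 0.000567), Isg20 at 1.39 (adjusted p = 0.000338), Samhd1, a nucleotide hydrolase, at 0.91 (adjusted p = 0.000912) and Ptpn6, a phosphatase, at 0.78 (adjusted p = 0.00239). Socs3 and Isg20 rose in the knockout as well (1.75, adjusted p = 0.00172, and 1.52, adjusted p = 0.001). Injected and knockout mice are each set against the same 3 uninjected mice here.

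**Figure D4:**
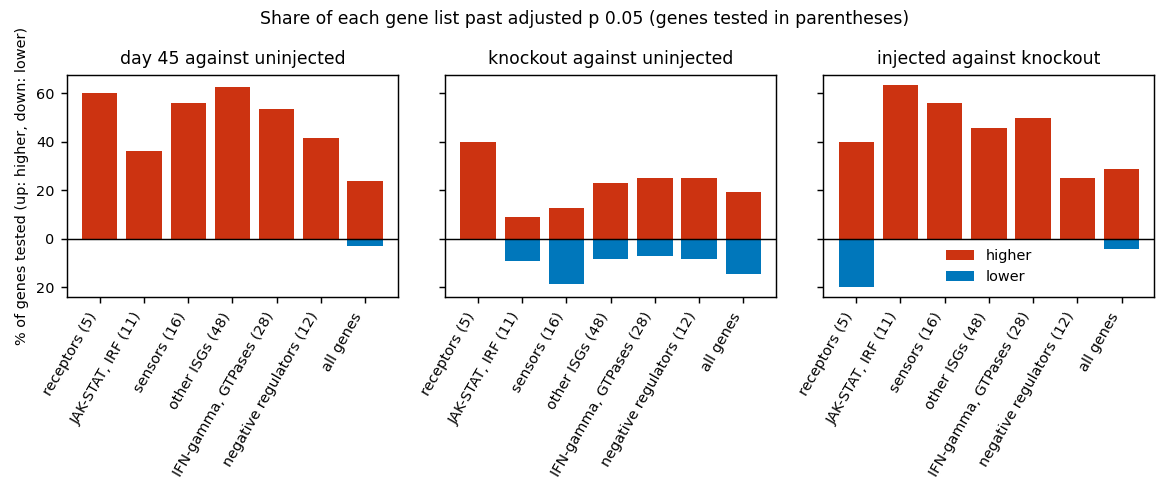
Share of each list of pathway genes called higher (red, upwards) or lower (blue, downwards) in 3 comparisons, with the number of genes tested in parentheses and all 11354 genes at the right (linear axis in percent). The other interferon-stimulated genes (ISGs) were higher for 30 of 48 at day 45 and for 11 of 48 in the knockout.

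The 10 genes outside the group whose log2(FPKM + 1) followed the mean standardised level of the 9 members most closely over the 14 livers had Pearson correlations of 0.90 to 0.95. They were I830012O16Rik (0.95), Rtp4 (0.93), Oas3 (0.92), Klhl22 (0.92), Ly6a (0.91), Abcg1 (0.91), Ngfr (0.90), 1700009P17Rik (0.90), Xaf1 (0.90) and Nes (0.90). Of these I830012O16Rik, Rtp4, Oas3 and Xaf1 are in the list of other interferon-stimulated genes, and the other 6 are in none of the lists. Ly6a, a surface antigen of stem cells and lymphocytes, was the most abundant, at 27.9 FPKM in the uninjected mice, 155.1 at day 45 and 77.8 in the knockout. The mean standardised level itself was highest in day 45 B (1.64) and C (1.01) and lowest in uninjected B (-1.66) and knockout C (-1.41).

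Markers of immune cells were also higher in injected than in uninjected mice, but they did not follow these genes in every liver. The 12 Kupffer cell and macrophage markers summed to 438.2, 334.8 and 610.2 FPKM in uninjected A, B and C, 821.9 to 960.9 at day 21, 1196 to 1333 at day 45, 907.2 at day 100, 972.8 at day 200, and 1649, 1117 and 393.1 in knockout A, B and C. The same 2 livers that were lowest for most members, uninjected B and knockout C, were the lowest of their groups for these markers. In injected against uninjected mice 10 of these 12 markers were called higher (median 1.12), where 27.4% of all genes were, or 5 with median centring, where 17.8% were. The called markers include C1qb (1.46, adjusted p = 0.0148) and Cd5l (0.99, adjusted p = 0.0107). Their part in the levels of the interferon-stimulated genes was not tested. None of these markers was at 0 in the uninjected mice.

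Other immune lists moved too, in a comparison that called 27.4% of all genes higher. Of the monocyte and neutrophil markers 7 of 7 tested rose (S100a8 2.95 and S100a9 2.78), of the T and NK cell markers 9 of 9 (Nkg7 2.11 and Gzma 1.14), of the B and plasma cell markers 5 of 6 (Cd79b 1.18, while Sdc1 at 0.36 was not called) and of the dendritic cell markers 4 of 5 (Zbtb46 0.52, while Bst2 at 0.12 was not called). The T and NK cell markers summed to 4.75 to 10.1 FPKM in the uninjected mice, 35.1 to 65.7 at day 21, 21.1 to 32.4 at day 45, 25.8 at day 100, 35.4 at day 200 and 12.3 to 30 in the knockout. All 3 day 21 mice thus lay above the day 45 mice for these markers, whereas the mean at day 45 was above the mean at day 21 for every one of the 9 genes but Usp18. Monocyte and neutrophil markers summed to 6.30 to 21.6 FPKM in the uninjected mice, 50.9 to 160.3 at day 21, 60.9 to 104.3 at day 45, 151.8 at day 100, 216.8 at day 200 and 42.0 to 171.6 in the knockout, and were thus highest in the day 200 mouse, in which 8 of the 9 genes were at their lowest among the injected mice. The summed dendritic cell markers were 90.4% to 98.5% Bst2, itself an interferon-stimulated gene, and the other 9 summed to 2.37 to 4.33 FPKM in the uninjected mice, 8.64 to 11.7 at day 21, 8.13 to 14.8 at day 45, 21.4 and 21.7 in the late mice and 6.26 to 9.32 in the knockout. Of the B and plasma cell markers Sdc1 made up 96.1% of the sum in the uninjected mice, and the other 7 summed to 2.36 to 5.85 FPKM there, 24.2 to 160.7 at day 21, 47.0 to 105.8 at day 45, 96.4 and 122.7 in the late mice and 6.98 to 20.9 in the knockout. With median centring 7 of the 9 T and NK cell markers and 3 of the 5 dendritic cell markers were higher, where 17.8% of all genes were. In the knockout against the uninjected mice 7 of 7 monocyte and neutrophil markers and 5 of 9 T and NK cell markers were called higher. The same held for 2 of 6 B and plasma cell markers and 2 of 5 dendritic cell markers, where 19.3% of all genes were called higher.

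Among cells that are not immune, 9 of 10 stellate cell and fibroblast markers rose (Dcn 1.05, while Rgs5 at 1.27 had an adjusted p of 0.052), as did 5 of 6 cholangiocyte markers (Spp1 3.74) and 4 of 8 endothelial markers (Clec4g and Kdr, at 0.43 and 0.62, were not called), where 27.4% of all genes were called higher. With median centring 8 stellate cell, 5 cholangiocyte and 2 endothelial markers were called higher, against 17.8% of all genes. Of 9 hepatocyte markers tested 2 fell, Apoa2 (-0.82, adjusted p = 0.0216) and Apoa1 (-0.77, adjusted p = 0.0233), where 4.28% of all genes were called lower. Alb, albumin, is listed at 0 in all 14 livers, Trf, transferrin, in 11 and Serpina1a, an antitrypsin, in 10, all uninjected mice included for Serpina1a, so that Trf and Serpina1a lack usable values although they were tested. The 7 hepatocyte markers never at 0 summed to 44089.7 to 52621 FPKM in the uninjected mice, 38692 to 42476 at day 21, 29672 to 38160 at day 45, 22931 to 35882 in the 2 late mice and 38109 to 42299.7 in the knockout. An exact 0 for such abundant liver genes can be a failed estimate, and the other hepatocyte markers show that the tissue is liver as labelled.

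**Figure D5:**
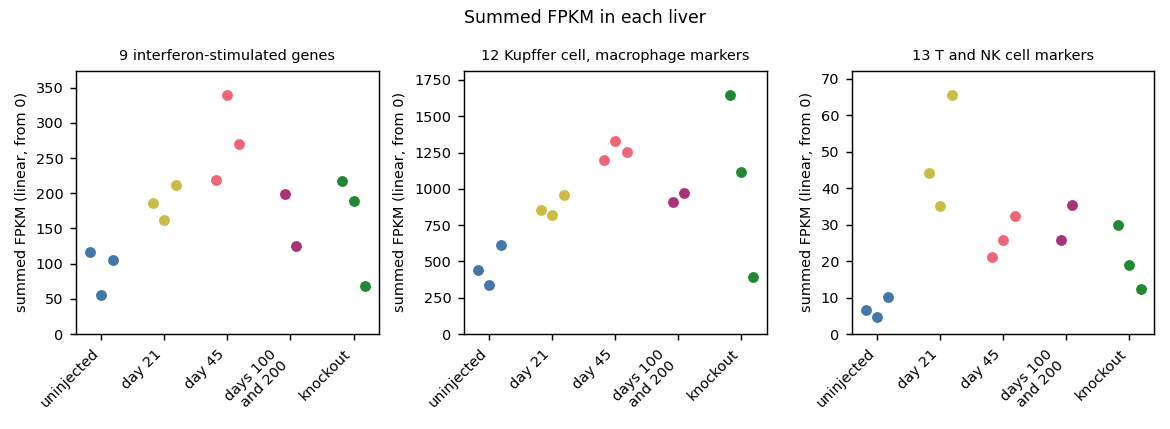
Summed FPKM of the 9 interferon-stimulated genes, of 12 Kupffer cell and macrophage markers and of 13 T and NK cell markers in each liver (linear axes from 0, points in the order A, B, C or day 100 then day 200). The first 2 sums are highest among floxed mice at day 45 and split knockout A and B from C, whereas the T and NK cell sum is highest in day 21 C and A.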

How the data were processed

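For poly-A RNA the authors mapped read pairs to mm9 with TopHat, then deposited FPKM from Cufflinks 2.2.1, scaled to the upper quartile, without ribosomal, small nucleolar and mitochondrial sequences. They aligned small RNA reads with Bowtie 0.12.7 and deposited RPM with 1 added, used here for the miR-122 share alone. Where a symbol had several rows (224 symbols), these were added up. FPKM hold no counts, so limma 3.58.1 (R 4.3.3; trend, Benjamini-Hochberg within each comparison) was fitted to log2(FPKM + 1) of 11354 genes with 5 groups, days 100 and 200 as 1. It was tested on simulated data with independent noise for each gene and library. Those data held no shift shared by a whole library, so that test does not cover such shifts. Columns of 14 livers were used, with none left unmapped. Python 3.11.15, pandas 2.3.3 and matplotlib 3.10.9 made the tables and figures.

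The 9 genes and the lists of pathway and marker genes were chosen with earlier results of these data known. Besides the 9 genes, the text names up to 4 called genes of each pathway list by size in injected against uninjected mice (the 2 most abundant where none was called), the 2 most abundant uninjected markers of each list, markers at 0 and the 10 genes most alike in pattern. Of these, 2 genes are not reported here. Ifnar1, Ifnar2, Mavs and Mx2 were named after their values were seen. Nothing says that same-lettered mice are paired.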

Additional observations from a re-analysis of the deposited data

How the results depend on the processing

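Of the counts of called members, 3 moved by more than 1.5 times under settings other than leaving out 1 library. Injected against knockout gave 2 rather than 4 with median centring. Day 21 against uninjected gave 0 rather than 1 without a filter, 5 when only these groups were fitted, and 0 with a replicate block (Usp18 at an adjusted p of 0.0762), a fit that also left out the day 100 and day 200 mice. In this order, 3.94%, 12.3% and 3.39% of all genes were called higher. Days 100 and 200 against uninjected gave 0 rather than 2 with median centring. Leaving out 1 library at a time gave 4 to 8 members for injected against uninjected, 0 to 5 for injected against knockout, 0 to 3 for knockout against uninjected, 0 to 4 at day 21, 4 to 9 at day 45 and 0 to 4 for days 100 and 200, and none between the times. The share of all genes called higher moved in these fits too, from 19.4% to 35.7% for injected against uninjected and from 3.19% to 40.1% for injected against knockout. It was 1.74% to 12.6% at day 21 and 14.4% to 32.8% at day 45. For knockout against uninjected 14.4% to 62.4% of all genes were called in either direction. With the 2 late mice kept, 22.7% to 39.0% were called higher for days 100 and 200. Where leaving out 1 library left 1 late mouse, that mouse was assumed to vary like the other groups.

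For single members, median centring reversed Irf7 in injected against knockout (-0.007) and Rsad2 at days 100 and 200 (-0.16), both uncalled. Leaving out 1 library reversed values within these ranges, all uncalled except Irf7 without knockout C (-0.58, adjusted p = 0.0371): Irf7 (-0.58 to 0.66) and Isg15 (-0.21 to 0.68) in injected against knockout, Ifit1 in knockout against uninjected (-0.42 to 0.18), Rsad2 at days 100 and 200 (-0.20 to 0.57), Ifi44 (-0.019 to 0.65), Oas2 (-0.034 to 0.40) and Usp18 (-0.15 to 0.24) at day 45 against day 21, and Ifi44 (-0.80 to 0.31) and Oas2 (-0.55 to 0.25) at days 100 and 200 against day 45. The cause was not tested.

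Same-lettered mice did not deviate together across all groups: of 18 pairs 8 had a correlation over 0.1 (range -0.45 to 0.50), and 6 of 12 mice correlated best with their own letter. Between day 21 and day 45, however, the same-lettered pairs were at 0.27 (A), 0.24 (B) and 0.50 (C). Other-lettered pairs of these groups ran from -0.41 to 0.26. The replicate block left 7 rather than 8 members at day 45 (Irf7 at an adjusted p of 0.0563) and 5 in injected against uninjected, where 20.9% and 16.3% of all genes were called higher. The mice of days 100 and 200 have no letter, so the block was fitted without them. Over all genes, the same mice gave 2389 calls without the block and 2152 with it in injected against uninjected, and 2496 and 1926 in injected against knockout, where all 14 mice gave 3593 and 3755. At day 21 the block gave 470 calls and all 14 mice without it 865. Without a filter 5422 were called in injected against uninjected and 5816 rather than 3592 at days 100 and 200, and with median centring 2217 in injected against knockout. Fitting only the groups compared called 1109 rather than 3833 genes in the knockout and 1774 at day 21. Between day 45 and day 21, 31 calls became 1 to 58 under the settings that were not leaving out 1 library and 0 to 1049 when 1 was left out, and between the late mice and day 45, 25 became 0 to 228 and 1 to 133. Depth limits Ifnb1, Ifnz and Ifng where they were above 0, but an exact 0 need not mean few fragments in this table. The 9 members were above 3 fragments in every liver.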
